A study of Arabidopsis thaliana with 8 samples.

Results

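In dark-grown Arabidopsis thaliana seedlings, 65 of 22746 probe sets (0.286%) were induced by 30 min of red light both on plain medium and on medium with lincomycin. A probe set is a group of array probes for 1 transcript, and it was chosen where its mean log2 intensity after red light exceeded that in darkness by 0.8 or more on each medium and both red arrays lay above both dark arrays. The members were thus chosen by their changes after red light on both media, and these are described below with no test. A gene was listed for 18 of the 65, exactly 1 gene each, and no gene was listed for the other 47. Probe sets of the plastid genome (77 on the array, of which 0 met the conditions) and 1 further probe set, a flavonoid glycosyltransferase, were left out.

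Whole wild type Col-0 seedlings were grown for 4 days in darkness on Murashige Skoog medium with sucrose, and their total RNA was hybridised to 8 Affymetrix arrays, 2 in each of 4 groups. Plain medium carried the groups called dark and red here, and medium with lincomycin those called dark lincomycin and red lincomycin. Seedlings of the red groups were collected after 30 min of red light, those of the dark groups with no light. The labels give the antibiotic's dose as 220 µg/ml in the protocol and 200 µg/ml in the sample source, and they do not say whether replicates came from separate plates, so a p-value covers the spread among arrays, which may be technical.

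Red light is absorbed by phytochromes, which move into the nucleus and set off the degradation of phytochrome-interacting factors (PIFs), transcription factors that hold seedlings in the dark growth programme. The first transcripts to change in light are mostly those of regulators, and the genes of the photosynthetic apparatus follow later. Lincomycin blocks protein synthesis on plastid ribosomes, and a plastid disturbed in this way is known to lower the transcripts of many nuclear photosynthesis genes through signals from plastid to nucleus. The lincomycin plates thus ask whether an early light response of the nucleus needs plastid translation.

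Without lincomycin, 441 probe sets (1.94%) met the condition on that medium, and 14.7% of them were members. With lincomycin 129 (0.567%) met it, of which 50.4% were members. Over all probe sets the SD of the log2 difference between replicates was 0.54 (dark) and 0.44 (red). It was 0.21 (dark lincomycin) and 0.22 (red lincomycin), so the fixed threshold met a larger spread without lincomycin. The part of this spread in the counts of 441 and 129 was not tested. The mirror image of the conditions, a fall on both media, held for 20 probe sets (0.0879%). Median array intensity ran from 31.9 to 36.1, and replicate arrays correlated over the probe sets (not independent points) at r = 0.970 (dark), 0.979 (red), 0.995 (dark lincomycin) and 0.995 (red lincomycin). The actin controls, which set the 3' end of a transcript against its 5' end, gave a ratio of 41.2 for dark replicate 1, while the remaining 7 arrays ran from 2.24 to 3.67. The mean log2 intensity of the hybridisation spikes was lowest for red replicate 1 (7.35, elsewhere 8.07 to 9.29). Both arrays belong to the comparison without lincomycin, and changes with 1 of them left out are given below for the genes they move most.

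The median rise of the 65 members was 1.41 (log2), or 2.66-fold, without lincomycin and 1.18, or 2.27-fold, with it, while the median change of all probe sets was 0.00 on each medium. In whole seedlings a change in the number of cells of a type and a change in RNA per cell cannot be told apart. The rises ran from 0.80 to 3.71 without lincomycin and from 0.80 to 3.25 with it, and the 18 named members had medians of 1.25 and 1.05. Both rises reached 1 or more (log2) in 35 members, 2 or more in 7 and 3 or more in 1. Relative to each probe set's mean over the 8 arrays, the members' median stood at -0.75 and -0.71 on the dark arrays and at 0.66 and 0.79 on the red arrays. On lincomycin it stood at -0.66 and -0.65 in darkness and at 0.59 and 0.69 after red light. The position of the members on an array was thus set by light on both media, as the choice of members requires. These medians lay close together on the replicate arrays of a group, but single members differed more. The members' median absolute replicate difference was 0.31 (dark), 0.33 (red), 0.18 (dark lincomycin) and 0.18 (red lincomycin). For all probe sets it was 0.28, 0.25, 0.12 and 0.13.

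**Figure D1:**
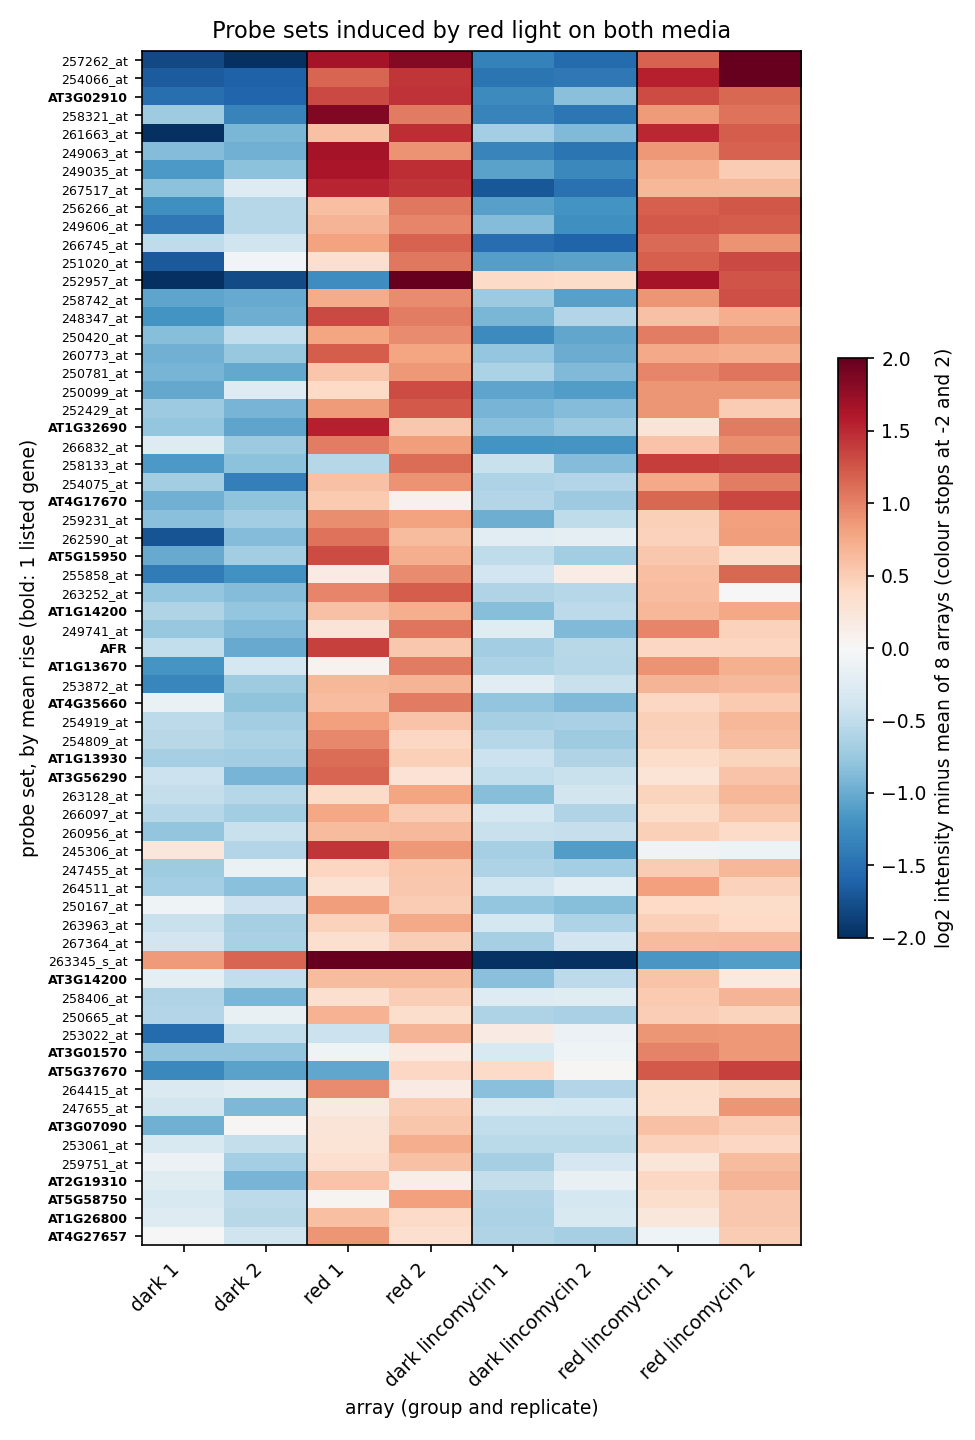
Log2 intensity of the 65 members on each of the 8 arrays (columns, 2 per group) relative to the probe set's mean over the 8 arrays, with rows in the order of the mean rise and bold names where 1 gene was listed. High values (red cells) fill the columns after red light and low values (blue cells) those in darkness in most rows on both media, and in the row of 263345_s_at all arrays without lincomycin lie above all arrays with it.

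AT3G02910, which encodes a protein of the AIG2-like family, had the largest mean rise of the members with a gene. With red light its intensity went from 62.8 and 59.1 to 443 and 484. With lincomycin the dark arrays gave 73.3 and 99.6, the red ones 437 and 394. The red arrays of both media lay within a narrow range, 7.60-fold above darkness without lincomycin and 4.86-fold with it. AT1G32690 went from 86.8 and 71.4 to 438 and 217, and on lincomycin from 82.8 and 90.07 to 178 and 304. Its rises were 3.91-fold and 2.69-fold (1.97 log2 without lincomycin, 1.46 when red replicate 1 was left out), and the arrays after red light differed more than those in darkness on either medium.

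AFR (ATTENUATED FAR-RED RESPONSE, AT2G24540), an F-box protein that acts positively in phytochrome A signalling, is itself a component of the light signalling pathway. Its transcript was measured at 41.3 and 28.9 without light and 149 and 83.7 with it, a 3.24-fold rise. On lincomycin it went from 35.7 and 39.5 to 76.8 and 77.7, a 2.06-fold rise. With red replicate 1, where the spikes were low, left out, its rise on plain medium was 1.28 (log2) in place of 1.69.

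AT4G17670, a small protein with an FCS-like zinc finger, a domain of plant adaptor proteins that bind the SnRK1 energy-sensing kinase, went from 27.4 and 30.6 in darkness to 76.8 and 57.0 after red light. On lincomycin it went from 35.5 and 32.3 to 119 and 134. Its rise was 2.28-fold without lincomycin and 3.73-fold with it, so the antibiotic's arrays held the larger rise. AT5G15950, an S-adenosylmethionine decarboxylase that provides the aminopropyl groups for spermidine and spermine, went the other way, with 3.63-fold and 2.06-fold. Its intensity rose from 35.9 and 44.5 to 177 and 119 without lincomycin, and from 50.7 and 44.3 to 104 and 91.6 with it.

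The next 6 genes are placed together only for order, since each encodes a ubiquitin ligase, a chaperone or a predicted peptidase. AT1G14200, a RING-type ubiquitin ligase gene, rose evenly on both media: from 90.8 and 80.6 to 208 and 229 without lincomycin and from 76.4 and 95.7 to 218 and 237 with it, 2.55-fold and 2.66-fold. AT1G26800, a second RING-type ligase gene, rose 1.86-fold (325 and 264 to 588 and 507) and 1.80-fold (251 and 314 to 453 and 560). AT3G14200, which encodes a DnaJ-domain co-chaperone, went from 69.4 and 56.2 to 123 and 123 and, on lincomycin, from 44.4 and 55.4 to 118 and 91.0. In these 3 genes the rises on the 2 media were nearly equal, although AT1G26800 met the conditions in only 4 of the 8 sets with 1 array left out.

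The small heat shock proteins AT5G37670 and AT2G19310, are chaperones that hold unfolded proteins. The intensity of AT5G37670, given in full after its values were seen, went from 12.2 and 14.1 to 14.5 and 39.6, and on lincomycin from 38.8 and 30.3 to 69.9 and 76.8. Replicate 1 of the red group thus barely exceeded the dark arrays. Without replicate 2 of that group, or without dark replicate 1, the gene no longer met the conditions. Its rise on plain medium was then 0.14 and 0.76 (log2) in place of 0.87, and it was 1.59 without red replicate 1. AT2G19310 went from 138 and 85.4 to 242 and 179 and from 118 and 148 to 218 and 263, and it met the conditions in 4 of the 8 sets with 1 array left out. AT3G07090, a predicted thiol peptidase of the PPPDE family, had unequal dark arrays (183 and 362) against 425 and 524 after red light. Its rise of 0.87 on plain medium was 0.38 once dark replicate 1, where the actin ratio was high, was left out, while on lincomycin it went from 253 and 253 to 534 and 508.

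AT3G01570, an oleosin of the oil body surface, went from 237 and 236 to 385 and 469 with red light on plain medium, and from 332 and 383 to 812 and 742 on lincomycin. By the choice of members, all 4 arrays after red light lay above the dark arrays of their own medium. The gene's rises were 1.80-fold and 2.17-fold. The rise on plain medium, 0.85 (log2), was 0.70 without red replicate 2, and the gene then missed the conditions. The other named members are given without a role. AT1G13670 rose from 17.3 and 30.6 to 40.9 and 80.5 and, on lincomycin, from 25.1 and 26.4 to 73.0 and 64.2. AT4G35660 rose from 13.5 and 8.46 to 22.7 and 30.4 and from 8.53 and 8.02 to 19.7 and 21.3, among the lowest signals of the named members. Both rose about equally on the 2 media, 2.49-fold and 2.66-fold in the first and 2.46-fold and 2.48-fold in the second. The rise of AT1G13670 on plain medium, 1.32 (log2), was 0.91 without dark replicate 1 and 1.81 without red replicate 1.

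AT1G13930 rose from 324 and 317 to 1111 and 716 without lincomycin and from 380 and 338 to 666 and 702 with it. AT3G56290 went from 38.7 and 27.4 to 117 and 64.4 and from 37.2 and 38.6 to 63.6 and 78.2. Both had the larger rise without lincomycin (2.78-fold against 1.91-fold, and 2.67-fold against 1.86-fold), and in both the higher red array was replicate 1, without which their rises were 1.16 and 0.98 (log2). AT5G58750 rose 1.81-fold and 1.90-fold, from 12.4 and 10.6 to 15.9 and 27.1 and, on lincomycin, from 10.1 and 11.9 to 19.5 and 22.3. Its rise on plain medium, 0.85 (log2), was 1.24 without red replicate 1. It was 0.47 without red replicate 2 and 0.74 without dark replicate 2, and in both cases the gene missed the conditions. AT4G27657 rose 1.75-fold and 1.79-fold. AT4G27657 was the member closest to the threshold, with a lesser rise of 0.80, and its rise on plain medium was 0.53 with red replicate 1 left out.

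**Figure D2:**
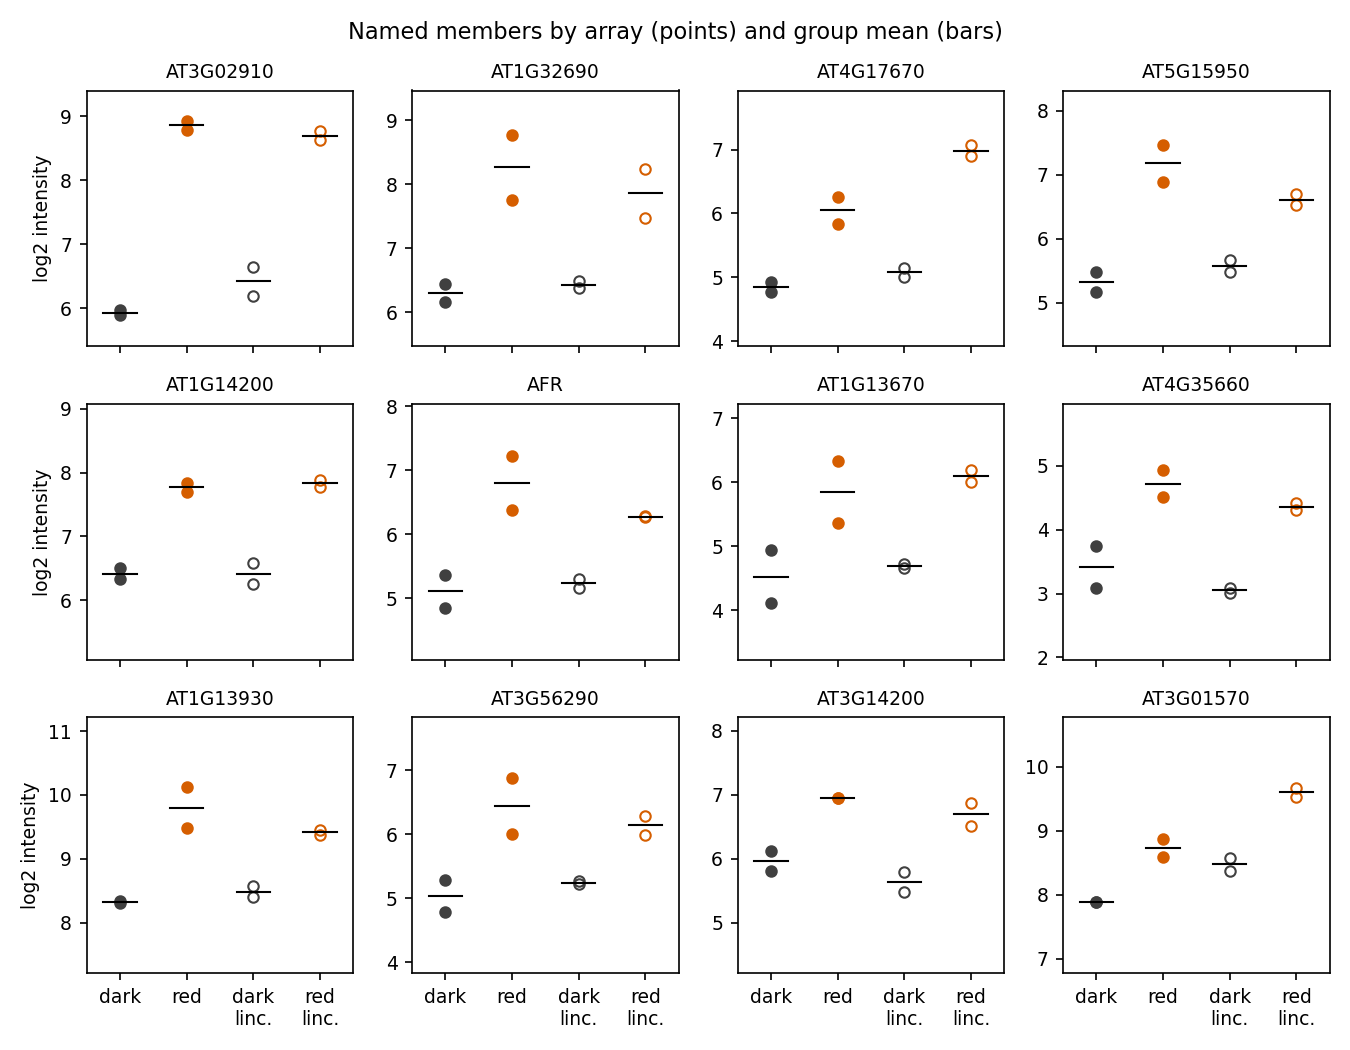
Log2 intensity of the 12 named members with the largest mean rise on each array (points, filled without lincomycin and open with it, dark in grey and red light in orange), with the mean of the 2 arrays of a group as a bar; each panel spans the same number of log2 units. In each panel both points after red light lie above both points in darkness on the same medium, as the choice of members requires. AT3G01570 stands higher on lincomycin in darkness and after red light.

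The 5 largest mean rises among members with no listed gene belonged to 257262_at, 254066_at, 258321_at, 261663_at and 249063_at. Probe set 257262_at went from 19.0 and 15.5 to 212 and 238, a 13.1-fold rise. On lincomycin it went from 26.1 and 23.0 to 151 and 289, an 8.54-fold rise. Both media gave the largest or second largest rise of the module at this probe set. Probe set 254066_at rose 7.64-fold (9.07 and 9.42 to 64.6 and 77.3) and, on lincomycin, 3.25 on the log2 scale (10.4 and 10.7 to 84.8 and 118). Its dark arrays on both media (log2 3.18 to 3.41) lay under log2 3.51, the 20th percentile of all values. The size of its rises thus rests on dark signals at the low end. The other 3 rose between 4.58-fold and 6.19-fold without lincomycin and between 4.41-fold and 5.35-fold with it. The 6.19-fold was that of 261663_at, whose dark arrays stood at 62.8 and 163, and it was 3.84-fold with dark replicate 1 left out and 8.41-fold with red replicate 1 left out.

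The rise was larger without lincomycin in 34 members and larger with it in 31, and the median of the rise with lincomycin minus the rise without it was -0.05 (log2). The difference of the 2 rises was under 0.5 in 43 members and over 1 in 4, none of which had a listed gene. The largest difference was that of 252957_at, chosen here after its values were seen, with rises of 2.80 without lincomycin and 1.09 with it. Its red arrays without lincomycin stood at 93.7 and 1024, so its larger rise rests on unequal replicates: it was 4.53 with red replicate 1 left out and 1.08 with red replicate 2 left out, the latter close to the rise on lincomycin. Across the 65 members the 2 rises correlated at r = 0.64, against -0.02 across all probe sets; the members are cut at 0.8 on both axes and share arrays, so this is a description only. Since the 2 rises chose the members, the difference between media was not tested for them.

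**Figure D3:**
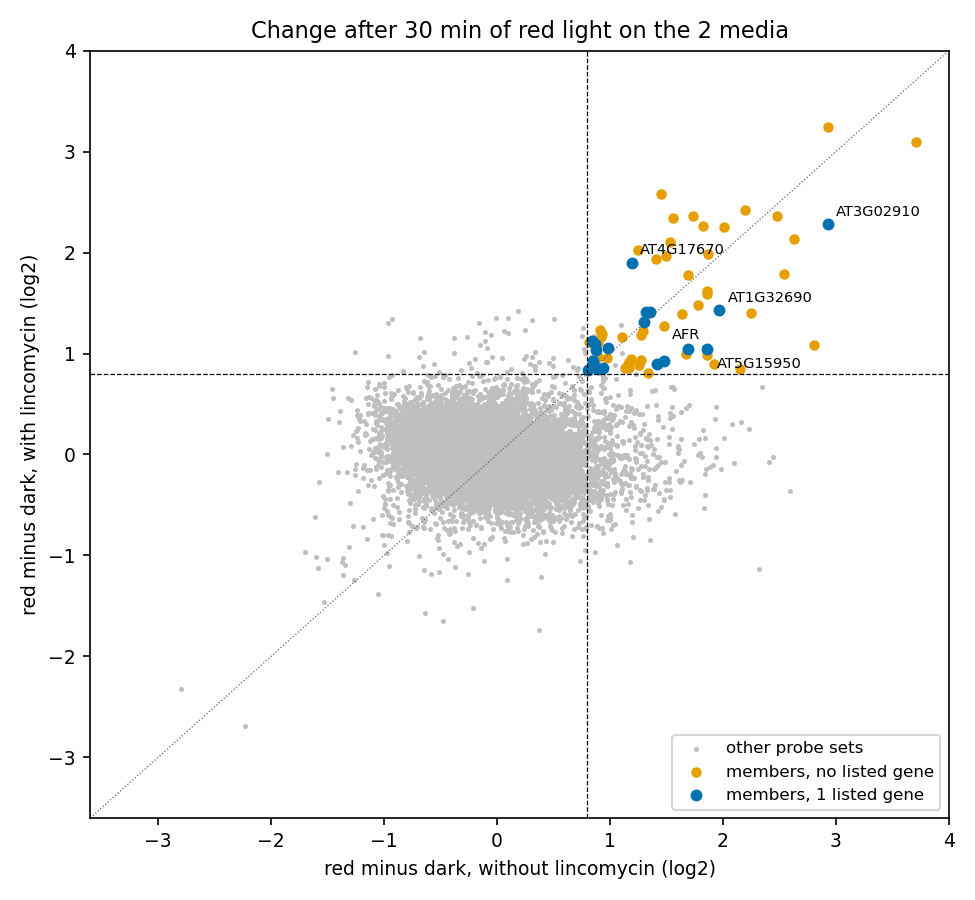
Change after red light (log2 of red minus dark) without lincomycin on the horizontal axis and with it on the vertical axis, for the members (blue with 1 listed gene, orange with none) and all other probe sets (grey), with dashed lines at the threshold of 0.8 and a dotted line of equal change. Members lie on both sides of the dotted line, 34 with the larger rise without lincomycin and 31 with it, and grey points past both dashed lines overlapped between arrays or were left out by name.

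Just inside the threshold lay AT4G27657 (0.80 and 0.84), 245306_at (1.34 and 0.80) and 264415_at (0.81 and 1.12), the rises being given without lincomycin first. Just outside it, with no overlap between arrays on either medium, lay 255403_at (1.23 and 0.79), AT3G45210 (0.93 and 0.79) and 256045_at (0.94 and 0.79). With each of the 8 arrays left out in turn, 39 of the 65 members met the conditions every time, 10 of them with a gene. With dark replicate 1 left out 58 members still met them, and with red replicate 1 left out 59. AT3G02910, AT1G32690, AT4G17670, AT5G15950, AT1G14200, AFR, AT1G13670, AT4G35660, AT1G13930 and AT3G14200 were the 10.

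The members were then compared between media over both light states. The size of this contrast is orthogonal to the 2 light contrasts and was not used to choose them. The condition of no overlap, however, used the replicate spread that also enters the p-values. The shares called below are thus not independent of the choice. The members differed between media in both directions, from -3.17 to 1.84 (log2, lincomycin minus none). The upper end, 1.84 ± 0.68, was that of 252957_at, whose replicates were unequal without lincomycin, and it was not called (limma adjusted p = 0.244). The median difference was -0.06, with 28 members above 0 and 37 below, against a median of -0.01 over all probe sets. In limma with Benjamini-Hochberg adjustment over all probe sets, 3 of the 65 members (4.62%) were called at an adjusted p under 0.05, 1 higher and 2 lower, where 0.897% of all probe sets were called (0.431% higher, 0.466% lower). At an unadjusted p under 0.05 the members' share was 24.6% and that of all probe sets 16.8%. Differences under 0.5 in size were found for 80.0% of the members and 91.0% of all probe sets. The shares of all probe sets include dim ones, whereas all 65 members lay among the 70% with the highest mean intensity. With the dimmest 30% left out, 217 of 15922 probe sets were called, 3 of them members.

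The probe set 263345_s_at, with no listed gene, had the largest lincomycin difference of the module. Its intensity went from 715 and 892 to 1910 and 1666 with red light, and on lincomycin from 101 and 93.9 to 177 and 184. It was 8.99-fold lower on lincomycin (-3.17 ± 0.11 log2, SE, 2 arrays in each of the 4 groups; limma adjusted p = 0.000291), and the groups did not overlap. Its rise after red light was nevertheless 1.16 without lincomycin and 0.89 with it. The suffix s marks a probe set whose probes can match more than 1 transcript, so this value may belong to several. Probe set 267517_at was lower on lincomycin as well (-0.94 ± 0.14, limma adjusted p = 0.0419). It went from 116 and 172 to 585 and 548 on plain medium and from 63.1 and 72.2 to 324 and 322 on lincomycin, so neither light state overlapped between media.

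AT3G01570, the oleosin gene, was the only member higher on lincomycin in that test (0.73 ± 0.11, 1.66-fold, limma adjusted p = 0.0419), by 0.59 in darkness and 0.87 after red light. The heat shock protein gene AT5G37670 was at 1.50 ± 0.30 and AT4G17670 at 0.58 ± 0.13, with limma adjusted p of 0.0749 and 0.0964. With a trended, robust variance AT3G01570 was no longer called (adjusted p = 0.0572) and AT5G37670 was (0.0486). The other 15 named members lay between -0.42 and 0.24, with limma adjusted p from 0.334 to 0.958. Of 7 reference genes 4 had a named probe set, and none of them was called between media. SAND was at -0.53, UBC21 at -0.56, TIP41 at -0.42 and GAPC2 at 0.33 (log2, lincomycin minus none). Leaving out either array of the dark lincomycin group, either of the red lincomycin group, or red replicate 1 left 1 call among the members, that of 263345_s_at, and leaving out red replicate 2 gave 6. The calls of 267517_at and AT3G01570 were lost in these 5 cases, with adjusted p from 0.118 to 0.239 and from 0.102 to 0.221. The calls over all probe sets moved too, from 204 to between 1 and 1106. Of the 204, 98 were higher and 106 lower, against 145 and 101 after a shift of each array to a common median.

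**Figure D4:**
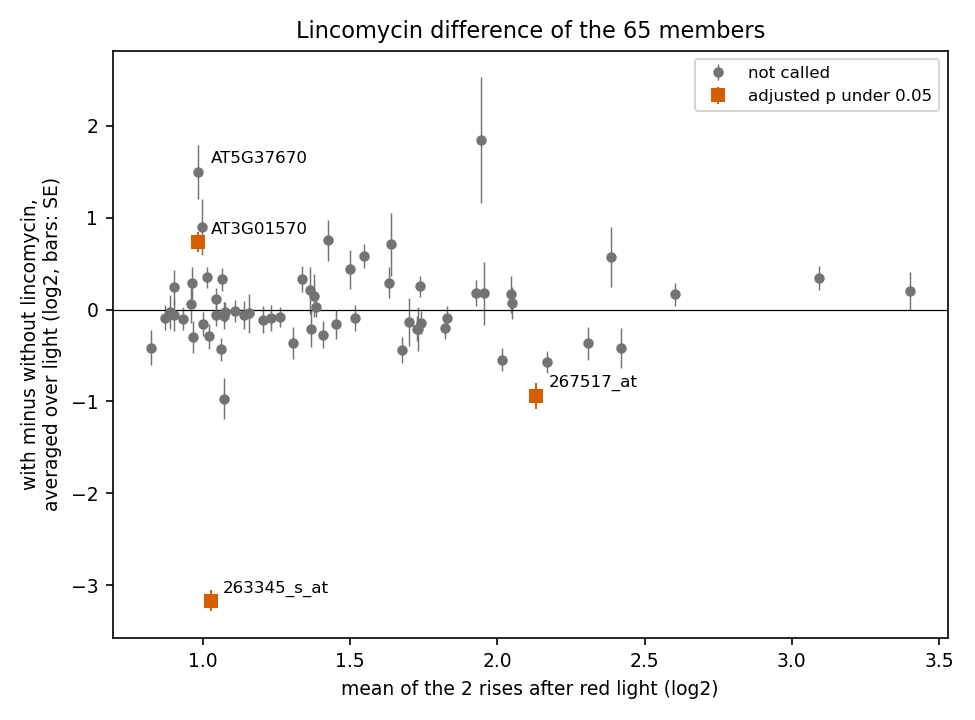
Difference between media averaged over light (lincomycin minus none, log2, with the SE of the limma fit) for the 65 members, against the mean of their 2 rises after red light. The 3 called members (orange squares) are AT3G01570 above 0 and 267517_at and 263345_s_at below it, and most of the others lie within 0.5 of 0.

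Light pathway genes outside the module were set beside it from 10 lists of 153 genes, of which 20 had a named probe set; 19 of these were not members and the other was AT5G15950. Of 10 genes for early light-induced and light-stress plastid proteins, 2 had a named probe set, LIL3:1 and LIL3:2. The named probe sets covered 2 of 33 light signalling regulators, 1 of 23 clock genes, 2 of 14 flavonoid genes and 3 of 19 antenna and Rubisco genes. They also covered 3 of 14 tetrapyrrole genes, 2 of 13 PIF targets, 3 of 10 polyamine genes, 2 of 11 rapid stress genes and 0 of 6 heat shock genes. In limma 1 of the 19 was called after red light without lincomycin and 1 with it, in each case IAA29, a repressor of the auxin response whose gene is activated by PIFs. Over all probe sets 0.189% were called without lincomycin (0.127% higher, 0.0615% lower) and 0.0615% with it (0.0572% higher, 0.0044% lower). The split without lincomycin, 29 higher and 14 lower, was 78 and 18 after the shift to a common median and 39 and 8 after quantile normalization. None of these 19 genes was called higher in limma. At an unadjusted p under 0.05 in limma, 3 of them were higher and 4 lower without lincomycin, and 0 higher and 4 lower with it. Of all probe sets 14.3% and 3.85% passed in either direction. Listed genes with no named probe set could not be placed inside or outside the module, since 47 members had no listed gene. Whether those genes rose is thus not known here. The medians of the 19 genes were 0.03 and -0.12 (log2), beside 0.00 for all probe sets on each medium.

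IAA29 fell on both media, with a change of -2.80 ± 0.21 (log2, SE) without lincomycin and -2.33 ± 0.21 with it (limma adjusted p = 0.0121 and 0.0299). Its intensity went from 339 and 321 to 38.3 and 58.9, and from 258 and 252 to 51.7 and 49.7. The call without lincomycin was lost when dark replicate 1 (adjusted p = 0.0611) or red replicate 1 (0.0602) was left out, and without either dark lincomycin array (0.0788) or either red lincomycin array (0.0714). With lincomycin it was lost without the first or second dark lincomycin array (0.391 and 0.509) or the first or second red lincomycin array (0.362 and 0.477). With dark replicate 2 left out, GI, LHCB4.2 and SAMDC1 were called higher after red light without lincomycin.

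GI and LHCB4.2 had changes past 0.8 without lincomycin, the size asked of members, and neither passed the test. The clock gene GI was at 1.11 ± 0.16 and 0.11 ± 0.16 (limma adjusted p = 0.0617 and 1). Its intensity went from 58.9 and 62.0 to 148 and 116, and on lincomycin from 117 and 111 to 129 and 118. Its dark arrays on lincomycin thus lay above those on plain medium. LHCB4.2, a light-harvesting antenna gene, was at 1.38 ± 0.33 and 0.01 (limma adjusted p = 0.156 without lincomycin). Its change without lincomycin was 0.96 (log2) with dark replicate 1 left out. The stress repressor ZAT10 was at 0.74 ± 0.14 without lincomycin (limma adjusted p = 0.109) and at -0.15 with it. Its dark arrays stood at 25.8 and 23.5 on plain medium and at 52.9 and 46.2 on lincomycin. Of the 33 light signalling regulators, FHL, which carries phytochrome A into the nucleus, was at -0.66 and 0.12, and HYH, a bZIP factor close to HY5, at 0.13 and -0.02. The other lowest p of each list belonged to LIL3:1 (-0.42 and 0.16) of the early light-induced and light-stress list, and to CHIL (0.08) and DFR (-0.08) of flavonoid synthesis. It also belonged to PORB (-0.28 and -0.54) of chlorophyll synthesis, LHCB4.1 with lincomycin (-0.41) and WRKY22 with lincomycin (-1.04, limma adjusted p = 0.127). The heat shock list had no named probe set, so AT5G37670 and AT2G19310 had no companions to be set beside.

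Polyamine synthesis gave the closest relatives of a member. AT5G15950 (SAMDC2) rose on both media by 1.86 and 1.04, the rises that chose it. Its relative SAMDC1 stood at 0.67 ± 0.31 and -0.16 ± 0.31, and SAMDC3 at -0.34 and -0.12, none with an adjusted p under 0.05. SAMDC1 was at 1413 and 2868 on the dark arrays and 3572 and 2888 on the red ones, and its change on plain medium was 0.16 with dark replicate 1, where the actin ratio was high, left out. The other 7 genes of that list had no named probe set.

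**Figure D5:**
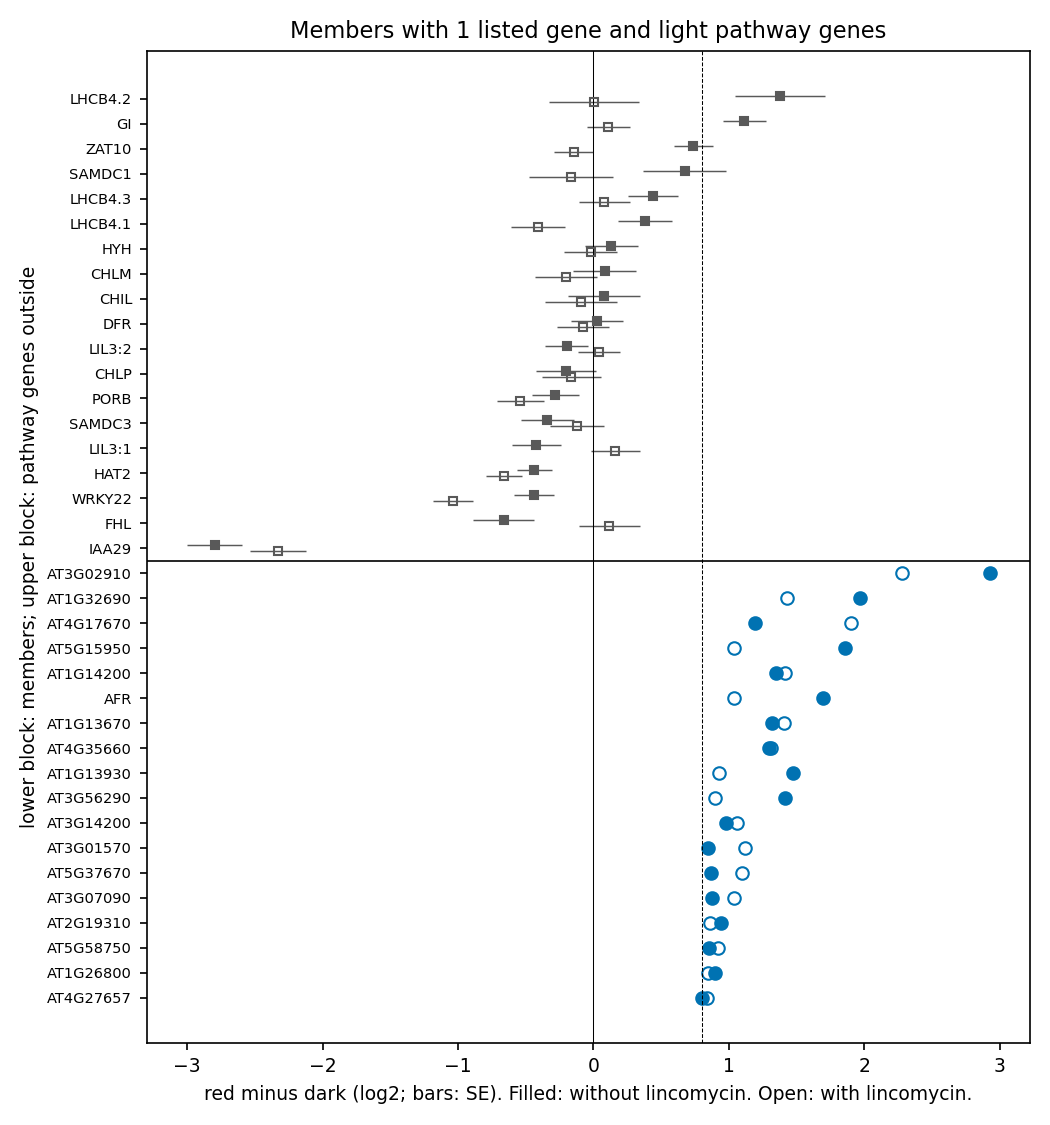
Change after red light (log2 of red minus dark) without lincomycin (filled) and with it (open) for the 18 named members (lower block, blue) and for the 19 light pathway genes outside the module (upper block, grey squares with the SE of the limma fit); the dashed line is the threshold of 0.8. All members lie to the right of the line on both media by choice, whereas LHCB4.2 and GI lie there only without lincomycin and IAA29 lies far to the left on both.

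Markers were looked for in these whole seedlings. Of 10 root markers EXPA7 and EXPA18, expansins of root hair cells, were named, and their summed intensity was 48.6 to 60.1 in the dark group and 87.3 to 113 in the red group. On lincomycin it was 81.5 to 109 in darkness and 62.0 to 82.4 after red light, so the ranges of red and dark arrays did not overlap without lincomycin. EXPA7 was at 1.14 ± 0.25 without lincomycin and -0.44 ± 0.25 with it (limma adjusted p = 0.133 and 1), and the difference between media did not pass for EXPA7 or EXPA18 (adjusted p = 0.336 and 0.395). The members rose on both media, and the part of root tissue in their rise was not tested. The guard cell lineage genes FAMA, SPCH and MUTE, 3 of 8 shoot markers, were at 9.42 to 20.4 on all arrays, near the low end of the signal, and no seed reserve marker had a named probe set.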

How the data were processed

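The deposited table held 1 intensity per probe set and array on a linear scale, which the authors had summarised with RMA per the submitters' processing notes; its version is not given in the sources used here. Log2 was taken before any step, and 64 control probe sets were left out, which left 22746. Genes came from the platform annotation, updated through RefSeq (TAIR10.1): 13513 probe sets had 1 listed gene, 503 several and 8730 none, and all 18 named members matched a locus. Group means of all 8 arrays were fitted with limma 3.58.1 (lmFit, eBayes, two-sided, 4 residual and 3.19 prior degrees of freedom) in R 4.3.3, with Benjamini-Hochberg adjustment over all probe sets and no filter on intensity. Each listed pathway gene had 1 probe set. The lincomycin procedure was tested on simulated data: it recovered 89% of changes of 1 and 100% of changes of 2 (log2), with 6 false calls. The simulated arrays of a probe set shared 1 spread, whereas the real replicates differed more without lincomycin than with it. The recovery may therefore not hold for the real arrays. Counts and plots used pandas 2.3.3, numpy 2.4.6 and matplotlib 3.10.9 under Python 3.11.15.

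The members and lists were chosen with earlier results of these data known. All members with 1 gene could be named, the 5 largest without one, and of each list the called genes or else the lowest p. The small number of arrays limits the precision.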

Additional observations from a re-analysis of the deposited data

Results flagged for a closer look

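LHCB4.1, SAMDC1 and EXPA7 moved in opposite directions on the 2 media, with no overlap between the red and dark arrays on either. With 2 arrays in a group this is a weak condition, and the share of all probe sets that met it was not counted. The nearest arrays almost touched for SAMDC1 without lincomycin (dark 2868, red 2888) and for EXPA7 with it (dark 41.7, red 41.4). LHCB4.1 was at 0.38 (log2) after red light without lincomycin and at -0.41 with it. SAMDC1, the relative of the member AT5G15950, was at 0.67 and -0.16, and the root marker EXPA7 at 1.14 and -0.44. The value of 0.67 for SAMDC1 rests on dark replicate 1. Its dark arrays stood at 1413 and 2868 and its red arrays at 3572 and 2888, and without that array the change was 0.16. The difference between media did not pass in limma for any of the 3, with an interaction of -0.79 ± 0.28, -0.84 ± 0.43 and -1.58 ± 0.35 (log2, SE) and adjusted p of 0.418, 0.563 and 0.336. No group had the 4 arrays that a check for a single far array needs.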

How the results depend on the processing

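The number of members was 99 at a threshold of 0.6 and 35 at 1.0, and 65 to 69 when array medians were shifted, values were quantile normalized, low values were raised to log2 3.51, the dimmest 30% were left out or overlap was allowed; without 1 array it ran from 58 to 76. The members' median rise without lincomycin was 1.504 after the median shift and 1.38 to 1.51 without 1 array, that with lincomycin 1.18 to 1.26, and the median lincomycin difference -0.091 to 0.019. The 204 lincomycin calls became 73 with low values raised, 119 with a replicate block and 1 to 1106 without 1 array. Members called (3) became 1 with low values raised, 1 with the replicate block and 1 to 6 without 1 array; AT5G37670 was called under 5 of 16 alternatives, among them the trended, robust variance, where AT3G01570 was not. Pathway calls after red light without lincomycin (1) became 2 after the median shift, 0 with low values raised (7 with an unadjusted p under 0.05) and 0 to 4 without 1 array. With lincomycin (1) they became 3 with array weights, 0 with low values raised or the replicate block (4 with an unadjusted p under 0.05 in each) and 0 to 1 without 1 array. Leaving out replicate 1 of the dark and red groups together, chosen after seeing the data, gave 71 members, 2657 lincomycin calls, 13 of them members, and 2 pathway calls on each medium. The causes were not tested. Replicate differences correlated between same-numbered groups at 0.44 without and 0.13 with lincomycin, but at -0.33 to -0.09 between media, so the numbers were not taken to pair the arrays.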

Other observations

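Exactly 1 gene was listed for 27.7% of the members and for 59.4% of all probe sets. Of the named members none had a second probe set, and the closest pairs on a chromosome had 25 protein-coding genes between them. All 65 members lay among the 70% of probe sets with the highest mean intensity.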
